A study of Mus musculus with 8 samples.

Results

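The 9 genes Mfhas1, Fgl1, Spcs3, Vegfc, Trmt9b, Leprotl1, Hpgd, Hmgb2 and Sap30 lie on mouse chromosome 8 distal to Wrn, the gene whose mutation the study examined. They were chosen because earlier results of these same data had shown them as shifted, so their values against wild type are given as a description. Where counts past a p are printed for the members against wild type, they support nothing. They are 9 of 19087 genes and 18 of 45220 features measured, and no feature was left out for low signal, because the deposited table holds no intensity. The 8 two-colour Agilent arrays set liver RNA of mice aged 9 months with a mutant Wrn protein beside RNA of a wild type liver, with 4 mutants given vitamin C and 4 mutants without it. Treated mutants, untreated mutants and wild type mice are all labelled with the strain C57Bl/6, and the labels name neither the kind of Wrn mutation nor the sex, nor how much vitamin C was given and for how long. Dyes were swapped on replicates 3 and 4 of each group, where the mutant carried Cy3 in place of Cy5. By their labels, the treated and the untreated array of a replicate number share a wild type liver, so both groups were set against 4 wild type livers in all.

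Wrn encodes a RecQ DNA helicase that is lost in human Werner syndrome, a disorder of premature ageing. When a gene is mutated in mice, DNA next to it on the same chromosome is inherited with it, and where the mutation was made in cells of another strain, genes close to it can keep that strain's alleles through many generations of backcrossing. The table holds no genotypes, so whether such linked alleles differed between the mutants and the wild type mice was not tested. A shift that both mutant groups share against the same 4 wild type livers could also follow the Wrn mutation itself or lie in those wild type livers. These possibilities cannot be told apart. The sequences of the features were not at hand, so a sequence difference under a feature could not be looked for. The members have no common pathway. Fgl1 and Vegfc encode secreted proteins, Spcs3 and Leprotl1 proteins of the secretory membranes, Trmt9b and Hpgd enzymes, Mfhas1 a leucine-rich repeat protein of signalling, and Hmgb2 and Sap30 proteins of chromatin.

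Values are log ratios taken to be log2, a base that no label or header states. A value above 0 is taken as higher in the mutant. This direction is likely but not settled, since each array lists wild type as channel 1, while the titles name the Cy5 RNA first. The values of the dye-swapped arrays were read as already turned to that direction. An earlier choice of this reading rested on a count of genes beside Wrn, which would be circular for the genes described here. A measure that does not rest on chromosome 8 is the difference between the treated and the untreated array of a number, in which dye bias and wild type RNA cancel. Across 18149 genes outside chromosome 8, this difference on the unswapped numbers had a Pearson correlation of 0.07 with that on the swapped numbers. The correlation has the opposite sign under the other reading, in which the swapped values still need turning. So weak a correlation does not settle the reading. Every member is therefore also given by its deposited values on each array. Array medians lay between -0.01 and 0.00, 4 arrays per group limit the precision, and a level cannot be given, so liver markers could not be checked as levels. In whole liver, a change in the share of a cell type and a change of RNA within its cells cannot be told apart.

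On the values as deposited, Mfhas1, Vegfc and Spcs3 lay above 0 on 8 of 8 arrays and Leprotl1 lay below 0 on 8 of 8. Fgl1 lay above 0 on 7 arrays and Trmt9b below 0 on 7. Hpgd was above 0 on the 4 unswapped arrays and below 0 on the 4 swapped ones. Hmgb2 and Sap30 had both signs within each group. Over all genes, 1.57% had one sign on 8 of 8 arrays, 0.608% above 0 and 0.964% below, while 4.1% would under the other reading. The members' count of 4 shows nothing, because they were chosen from these values. Taking both groups over wild type, 6 of the 9 had an unadjusted p under 0.05 in limma, 4 higher and 2 lower. Of all genes 5.9% did, 2.78% higher and 3.13% lower, and again the choice of members fixes their count. The corresponding counts were 6 of 9 in treated mutants, where the share over all genes was 7.09%, and 7 of 9 in untreated mutants, where it was 7.79%. No member and no other gene passed an adjusted p of 0.05 in any of these comparisons (0% of genes). The reading weighs on all of these values. With the swapped values turned by the dyes, the means over both groups would be 0.16 for Mfhas1, 0.35 for Fgl1, 0.08 for Spcs3, -0.11 for Vegfc and -0.16 for Trmt9b. They would be 0.10 for Leprotl1, 0.63 for Hpgd, -0.03 for Hmgb2 and 0.15 for Sap30, so that the signs of Vegfc, Leprotl1 and Sap30 flip.

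**Figure D1:**
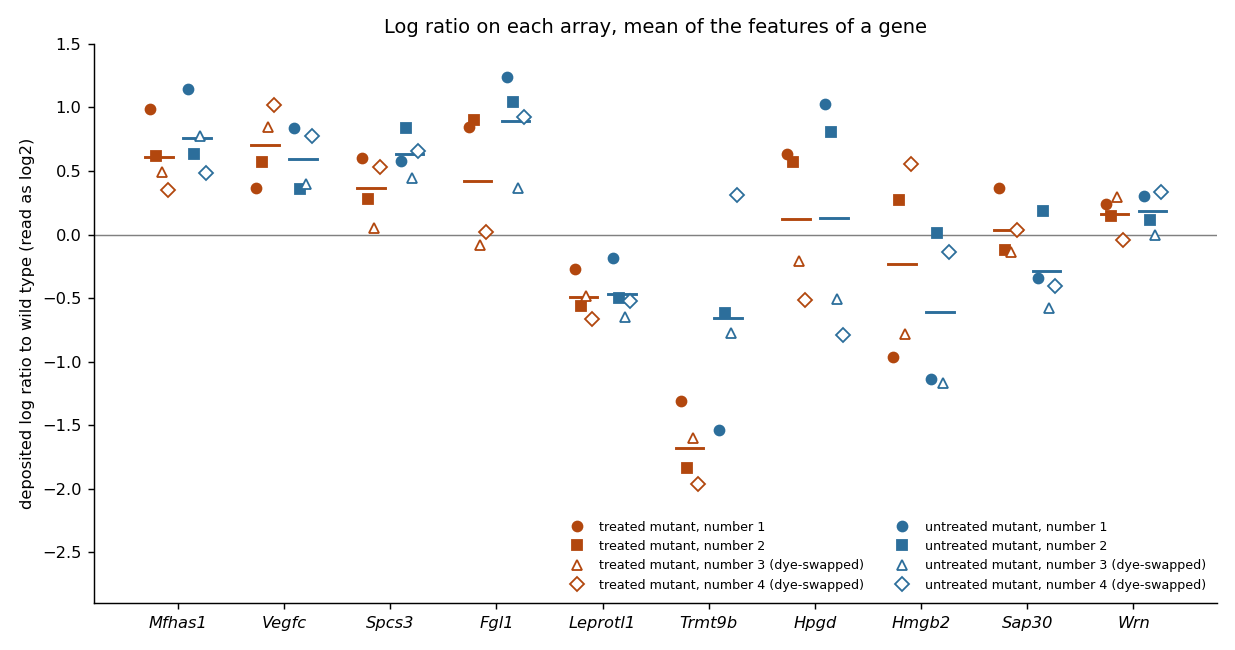
Deposited log ratio to wild type (vertical axis, log2) of the 9 members and Wrn on each array. Treated mutants are left of untreated mutants, filled symbols are unswapped and open symbols dye-swapped arrays, symbol shapes mark the wild type number, and horizontal lines are means of 4 arrays. Mfhas1, Vegfc and Spcs3 lie above 0 on 8 arrays, Leprotl1 below 0 on 8, and the filled and open symbols of Hpgd lie on opposite sides of 0.

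Fgl1 encodes a fibrinogen-like protein that hepatocytes secrete and that is known as a ligand of the lymphocyte receptor LAG3. It stood at 0.85, 0.90, -0.09 and 0.02 in treated mutants 1 to 4, and at 1.24, 1.05, 0.37 and 0.93 in untreated mutants 1 to 4. Its mean was 0.42 ± 0.12 in treated mutants and 0.89 ± 0.12 in untreated mutants (SE from limma, n = 4 arrays each). Both swapped arrays of treated mutants were thus near 0, but the 2 features of the gene disagreed. In treated mutants 1 to 4, feature 22547 stood at 1.76, 2.08, 0.11 and 1.44, and feature 6410 at -0.07, -0.28, -0.28 and -1.41. The value near 0 on treated mutant 4 is thus the mean of a high and a low feature. Feature 22547, annotated to the RefSeq transcript, lay between 0.11 and 2.08 in treated and between 0.39 and 2.14 in untreated mutants. Feature 6410, annotated to a cDNA clone, lay between -1.41 and -0.07 in treated and between -0.28 and 0.38 in untreated mutants. The higher value of Fgl1 came from feature 22547, which was above 0 on 8 arrays and lowest on both arrays of number 3.

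Vegfc encodes a growth factor of lymphatic vessels that signals through the receptor encoded by Flt4. It stood at 0.37, 0.57, 0.85 and 1.02 in treated mutants 1 to 4, and at 0.84, 0.36, 0.40 and 0.77 in untreated mutants 1 to 4. Its mean was 0.70 ± 0.13 in treated mutants, which is 1.63-fold, and 0.59 ± 0.13 in untreated mutants, which is 1.51-fold. Every array lay above 0, the ranges of the groups overlapped, and the unswapped and swapped means were 0.53 and 0.76. A single feature measured the gene. The promoter is shown as it belongs to a member with the same sign on every array, and it can be set beside those of Hpgd and Hmgb2, whose values followed the dye and the wild type number. It is the stretch of 250 bases before the start of the gene on the plus strand, chr8:54077282-54077531 in GRCm38.p6, taken from RefSeq, whose promoter table matched 4 of the 9 members. Capitals mark GGGCGG, a GC box, on either strand.
Vegfc: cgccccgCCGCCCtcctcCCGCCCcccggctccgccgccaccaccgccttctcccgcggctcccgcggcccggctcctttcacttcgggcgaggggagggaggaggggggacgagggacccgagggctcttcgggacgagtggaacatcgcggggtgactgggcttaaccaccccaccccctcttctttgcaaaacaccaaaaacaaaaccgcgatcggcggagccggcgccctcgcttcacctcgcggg

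The Vegfc stretch held GGGCGG at 2 places, 30 CpG dinucleotides and no match to CCAAT or TATAAA, each searched on both strands. Over all 32851 RefSeq promoters of the same length, 32.7% held GGGCGG, 33.8% CCAAT and 12.4% TATAAA, and the median count of CpG was 6. A match is only a run of letters, and no match says only that the letters are absent from this stretch.

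Spcs3 encodes a subunit of the signal peptidase, which cuts the signal sequence from proteins entering the endoplasmic reticulum. It stood at 0.61, 0.28, 0.05 and 0.53 in treated mutants 1 to 4, and at 0.58, 0.84, 0.45 and 0.66 in untreated mutants 1 to 4. Its mean was 0.37 ± 0.11 in treated mutants and 0.63 ± 0.11 in untreated mutants. The 3 features had means of both groups of 0.46, 0.43 and 0.61, and of their 24 values only 1, on treated mutant 3, lay below 0. The 3 features of Spcs3 thus lay on the same side of 0 in all but that value.

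Leprotl1 encodes a small membrane protein related to the leptin receptor overlapping transcript, known in mouse liver for limiting growth hormone receptor at the cell surface. It stood at -0.27, -0.56, -0.48 and -0.66 in treated mutants 1 to 4, and at -0.19, -0.50, -0.65 and -0.52 in untreated mutants 1 to 4. Its mean was -0.49 ± 0.10 in treated mutants and -0.47 ± 0.10 in untreated mutants, which is 1.41-fold and 1.38-fold lower. The groups covered nearly the same range. Its 3 features, all annotated to RefSeq transcripts, differed. Feature 12271 lay between -1.22 and -0.81 in treated and between -1.31 and -0.62 in untreated mutants, below 0 on 8 arrays. Feature 14979 had both signs on the unswapped arrays, between -0.41 and 0.28, and a mean of -0.78 on the swapped ones. Feature 32166 had a mean of -0.05 in treated and -0.01 in untreated mutants, with a mean of -0.27 on unswapped and 0.20 on swapped arrays. Of the 3, only feature 12271 was thus below 0 on 8 arrays.

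**Figure D2:**
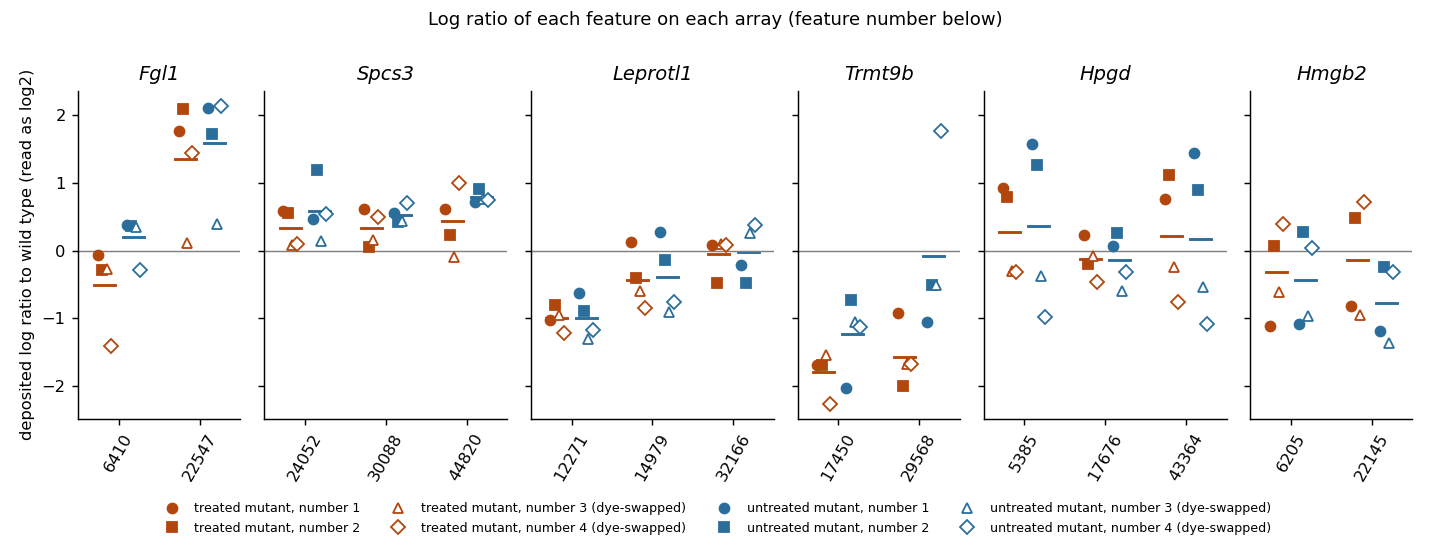
Deposited log ratio to wild type (vertical axis, read as log2) of each feature of the 6 members with more than 1 feature, on each array. Treated mutants are left of untreated mutants, filled symbols are unswapped and open symbols dye-swapped arrays, and lines are means of 4 arrays. Both features of Hmgb2 are low on numbers 1 and 3, those of Fgl1 and Leprotl1 stand apart, and untreated mutant 4 is at 1.76 for Trmt9b feature 29568.

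Mfhas1 encodes a leucine-rich repeat protein with a GTPase-like domain that has been placed in Toll-like receptor signalling. It stood at 0.99, 0.62, 0.50 and 0.35 in treated mutants 1 to 4, and at 1.14, 0.63, 0.77 and 0.49 in untreated mutants 1 to 4. Its mean was 0.61 ± 0.12 in treated mutants, which is 1.53-fold, and 0.76 ± 0.12 in untreated mutants, which is 1.69-fold. All arrays lay above 0, the ranges overlapped, and number 1 gave the highest value in both groups. A single feature measured it, annotated to a cDNA clone. With the 2 arrays of each number averaged, the mean over both groups was 0.69 ± 0.11, with a mean of 1.07 for number 1 and 0.42 for number 4.

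Trmt9b encodes a protein related to the methyltransferase that finishes modified wobble uridines of tRNA. It stood at -1.31, -1.84, -1.60 and -1.96 in treated mutants 1 to 4, and at -1.54, -0.62, -0.78 and 0.31 in untreated mutants 1 to 4. Its mean was -1.68 ± 0.23 in treated mutants, which is 3.20-fold lower, and -0.65 ± 0.23 in untreated mutants, which is 1.57-fold lower. The treated arrays lay within a range of -1.96 to -1.31, while the untreated ones were spread over -1.54 to 0.31. This spread came mostly from feature 29568, which stood at -1.05, -0.51, -0.50 and 1.76 in untreated mutants. Feature 17450 stood at -1.69, -1.69, -1.54 and -2.26 in treated mutants and at -2.03, -0.72, -1.05 and -1.13 in untreated mutants, and so was below 0 on 8 arrays. The mean of Trmt9b over both groups was -1.17 ± 0.10 as deposited, the furthest from 0 of the 9, and -0.16 under the other reading, in which Hpgd was the furthest. The SE of 0.10 comes from the 4 number averages, in which the treated and untreated arrays can offset each other, as on number 4. Leaving out single arrays gave means between -1.45 and -0.88 as deposited.

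Hpgd encodes the dehydrogenase that begins the breakdown of prostaglandins. It stood at 0.64, 0.57, -0.21 and -0.51 in treated mutants 1 to 4, and at 1.02, 0.81, -0.50 and -0.79 in untreated mutants 1 to 4. The sign followed the dye in both groups, with a mean of 0.76 on the unswapped and -0.51 on the swapped arrays. As deposited its mean was 0.12 ± 0.12 in treated mutants and 0.13 ± 0.12 in untreated mutants. Under the other reading, in which the swapped values are turned by the dyes, the means would be 0.48 ± 0.10 in treated and 0.78 ± 0.10 in untreated mutants, and Hpgd would be 1 of 9 genes, or 0.0472% of all, that pass an adjusted p of 0.05 in untreated mutants by limma. Of its 3 features, 5385 and 43364 showed the change of sign strongly, with unswapped means of 1.14 and 1.05 and swapped means of -0.49 and -0.66. Feature 17676, annotated to a cDNA clone, had means of 0.09 and -0.37. Its mean over both groups thus stood off 0 only under the other reading, at 0.63 ± 0.09. The mean of 5 hepatocyte markers stood at 0.21, 0.34, -0.28 and -0.32 in treated mutants 1 to 4 and at 0.42, 0.36, -0.47 and -0.72 in untreated mutants 1 to 4. Among these 5 markers, Alb and Cyp2e1 changed sign with the dye on 8 arrays, and Tat, Apoa1 and Ttr did not. The part of hepatocyte RNA in the values of Hpgd was not tested. Its promoter, chr8:56294302-56294551 on the plus strand of GRCm38.p6 in RefSeq, held GGGCGG at 1 place, in capitals, with 9 CpG and no match to CCAAT or TATAAA.
Hpgd: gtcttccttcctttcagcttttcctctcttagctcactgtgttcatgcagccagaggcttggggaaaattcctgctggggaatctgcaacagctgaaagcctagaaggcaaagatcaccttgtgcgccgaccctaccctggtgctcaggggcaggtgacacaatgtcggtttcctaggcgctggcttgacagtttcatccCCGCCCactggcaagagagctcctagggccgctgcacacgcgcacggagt

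Hmgb2 encodes a chromatin protein that bends DNA and is abundant in dividing cells. It stood at -0.96, 0.27, -0.78 and 0.56 in treated mutants 1 to 4, and at -1.14, 0.02, -1.17 and -0.14 in untreated mutants 1 to 4. Its mean was -0.23 ± 0.29 in treated mutants and -0.61 ± 0.29 in untreated mutants, with an interval that includes 0 in each. The values followed the wild type number. Numbers 1 and 3 had means of -1.05 and -0.98 over both groups, and numbers 2 and 4 had means of 0.14 and 0.21. Both features of Hmgb2 showed this split. It did not follow the dye, with means of -0.45 on unswapped and -0.38 on swapped arrays. The 2 arrays of a number are labelled with the same wild type liver, and its part in this split was not tested. Its promoter, chr8:57511593-57511842 on the plus strand of GRCm38.p6 in RefSeq, held CCAAT at 4 places, GGGCGG at 1 place and 14 CpG, with both motifs in capitals, and no match to TATAAA.
Hmgb2: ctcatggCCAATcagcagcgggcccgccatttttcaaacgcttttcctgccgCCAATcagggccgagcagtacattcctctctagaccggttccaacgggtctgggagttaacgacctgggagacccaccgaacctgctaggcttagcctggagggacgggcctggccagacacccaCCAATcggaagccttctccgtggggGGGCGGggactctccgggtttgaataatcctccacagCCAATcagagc

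Sap30, a subunit of the Sin3 histone deacetylase complex, lies next to Hmgb2 among the measured genes. It stood at 0.37, -0.12, -0.14 and 0.03 in treated mutants 1 to 4, and at -0.34, 0.18, -0.58 and -0.40 in untreated mutants 1 to 4. Its mean was 0.03 ± 0.12 in treated mutants and -0.29 ± 0.12 in untreated mutants. The ranges overlapped. Numbers 1 and 2 had means of 0.01 and 0.03 and numbers 3 and 4 means of -0.36 and -0.18, which is not the split seen for Hmgb2.

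Wrn itself was measured by 4 features. Where they lie relative to the mutation is not known here, so they check no label. The gene stood at 0.24, 0.15, 0.29 and -0.04 in treated mutants 1 to 4, and at 0.31, 0.11, 0.00 and 0.34 in untreated mutants 1 to 4. Its mean over both groups was 0.17 ± 0.08 as deposited and 0.03 ± 0.08 under the other reading. In size it was smaller than 7 of the 9 members as deposited, the exceptions being Hpgd and Sap30, and smaller than 9 of 9 under the other reading.

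The comparison of treated with untreated mutants asks whether vitamin C went with a different level of these genes. The choice of members did not use this contrast directly, although it is made of the same arrays. No member passed in limma, with adjusted p of 0.974 or above, and over all genes none did. Unadjusted, 4.28% of all genes had a p under 0.05 and 1.91% had one with the lower value in treated mutants. Of the 9 members 2 did, both lower in treated mutants. Leprotl1 differed by -0.03, with a 95% interval of -0.35 to 0.29, Vegfc by 0.11 (-0.29 to 0.51) and Mfhas1 by -0.15 (-0.52 to 0.23). For these members the group means were near each other, and the intervals still allow differences as large as these bounds. Spcs3 differed by -0.27 (-0.63 to 0.10), Sap30 by 0.32 (-0.07 to 0.71), Hmgb2 by 0.38 (-0.55 to 1.30) and Hpgd by -0.01 (-0.40 to 0.37).

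The fit that gave these intervals had no term for the wild type number. In it, Trmt9b and Fgl1 had intervals that did not include 0. Trmt9b was lower in treated than in untreated mutants by a difference of -1.02, with an interval of -1.77 to -0.28 (unadjusted p = 0.0124 and adjusted p = 0.974 in limma). By number the difference was 0.23, -1.23, -0.83 and -2.28, so it was below 0 in 3 of 4 numbers. For Trmt9b feature 17450 alone it was -0.56, with an interval of -1.20 to 0.08. Fgl1 differed by -0.47, with an interval of -0.85 to -0.10 (unadjusted p = 0.0191 and adjusted p = 0.974 in limma), and was lower in treated mutants in 4 of 4 numbers. The difference was -0.71 for feature 6410 of Fgl1 and -0.24 for feature 22547, the one that stood high against wild type. Both directions depend on the reading: with the swapped values turned by the dyes, the difference would be 0.53 (-0.46 to 1.51) for Trmt9b and 0.21 (-0.29 to 0.70) for Fgl1. With the wild type number as a fixed block, 6.48% of genes had an unadjusted p under 0.05 and no gene passed after adjustment. Hmgb2, higher in treated mutants in 4 of 4 numbers by 0.17 to 0.70 as deposited, then had an interval of 0.04 to 0.71 (unadjusted p = 0.0310 and adjusted p = 0.757 in limma). Without the block and with the swapped values turned, the difference of Hmgb2 would be -0.16 (-1.12 to 0.79).

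**Figure D3:**
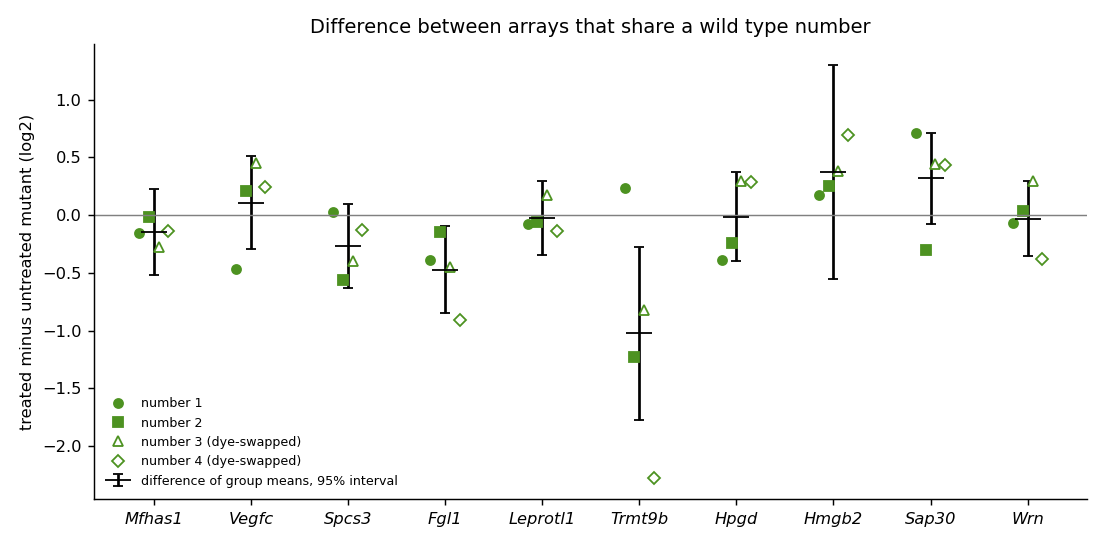
Difference between treated and untreated mutants (vertical axis, log2) for the 9 members and Wrn. Symbols are the differences between the treated and the untreated array of each wild type number, open where dye-swapped. Bars are the difference of group means with its 95% interval, from the fit without a term for the wild type number. The intervals of Fgl1 and Trmt9b lie below 0, and number 4 of Trmt9b stands at -2.28.

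The genes around Wrn were then laid out in the order of the RefSeq gene table. That table belongs to the assembly GRCm38.p6. As the files name no build, it gave gene order only. Leprotl1 was the 11th, Mfhas1 the 17th, Trmt9b the 21st and Fgl1 the 38th measured gene distal to Wrn. Vegfc and Spcs3 were the 83rd and 84th, Hpgd the 91st, and Sap30 and Hmgb2 the 98th and 99th. On the distal side, 22 of 100 measured genes had an unadjusted p under 0.05 with both groups set over wild type, 15 higher and 7 lower. On the proximal side 3 of 100 did, and all 3 were lower. Without the 9 members, 16 of 91 distal genes did, or 17.6%, against 5.9% of all genes. A p under 0.01 was found for 14 of the 200 genes on both sides, 6 of them members chosen for their shift. Without the members it was found for 8 of 191, or 4.19%, and over all genes for 1.13%. The distal genes did not shift in one direction, as 49 of 100 lay above 0 with a median of 0.00.

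By bins of 25 genes, the distal side gave 8, 7, 2 and 5 such genes in order of distance from Wrn, and the proximal side gave 1, 0, 1 and 1. The first and second distal bins thus held most of them. These counts include members chosen for their shift, so the pattern by distance is partly set by that choice. They are Leprotl1, Mfhas1 and Trmt9b in the first bin, Fgl1 in the second, and Vegfc and Spcs3 in the fourth. Over whole chromosomes, chromosome 8 had the highest share of the 20 compared, at 9.28%, followed by chromosome 17 at 7.69%. The 632 genes of chromosome 8 beyond the distal window gave 9.02%, also above the share of all genes. These counts describe the values as deposited. With the swapped values turned by the dyes, 8 distal and 11 proximal genes had such a p, where 10.6% of all genes did, and chromosome 8, at 9.70%, had the lowest share of the 20. A count of this kind in this window had been used before to choose the reading, so it supports nothing.

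**Figure D4:**
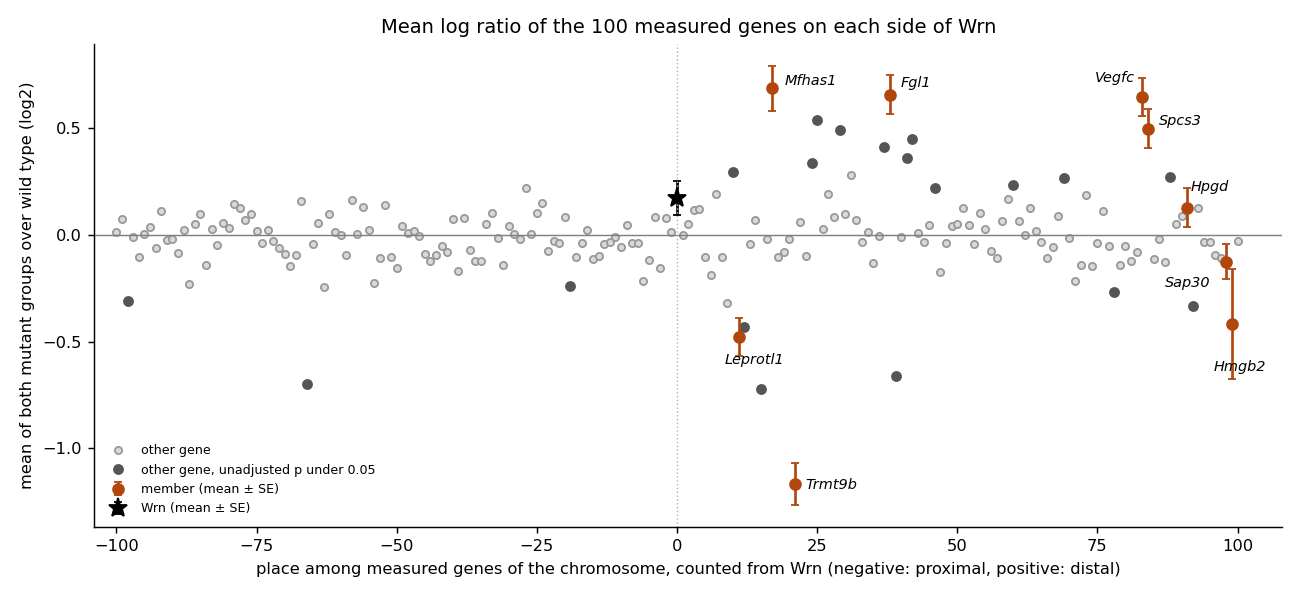
Mean log2 ratio of both mutant groups over wild type (vertical axis) of 100 measured genes to either side of Wrn, by place in gene order from Wrn (horizontal axis). Members and Wrn have bars of 1 SE, and dark points are other genes with an unadjusted p under 0.05. Of the 25 genes past that p, 22 are on the distal side and 3 on the proximal side.

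**Figure D5:**
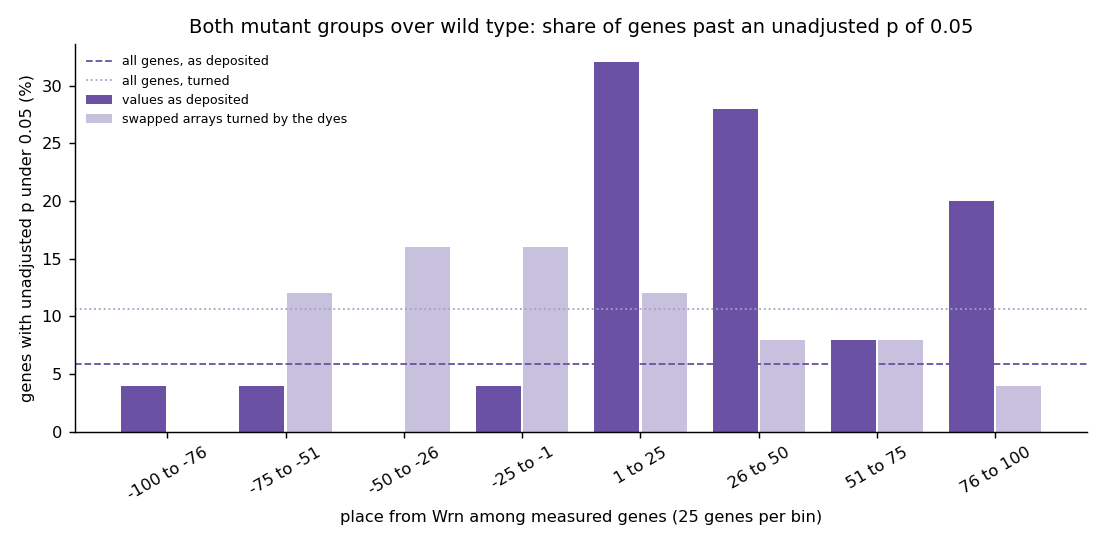
Share of genes whose unadjusted p was under 0.05 in the fit of both mutant groups over wild type (vertical axis, percent) in bins of 25 measured genes by place from Wrn, with values as deposited (dark) and with swapped arrays turned by the dyes (light). Lines mark the shares over all genes, 5.9% and 10.6%. The dark bars of the first and second distal bins stand at 32% and 28%, and the light ones at 12% and 8%.

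Another count takes the genes with one sign on the 4 unswapped arrays and one sign on the 4 swapped arrays. It asks whether these signs are the same in the deposited table. The same ones have one sign on 8 of 8 arrays as deposited, and the opposite ones would under the other reading. The count thus restates both readings. For the genes around Wrn it falls in a window used before to choose the reading, so there it supports nothing. Over all genes it does not settle the reading, since in values already turned a dye bias also gives opposite signs. Of all genes, 1082 had one sign in each set, 300 the same and 782 opposite, so 27.7% were the same. Among the 100 distal genes, 11 had one sign in each set, 9 the same and 2 opposite, and without the members the counts were 5 and 1. Among the 100 proximal genes the counts were 2 and 5. The distal genes with the same sign were Leprotl1, Saraf, Ppp1r3b, Mfhas1, Mtus1, Frg1, Enpp6, Vegfc and Spcs3, and the opposite ones were Eri1 and Hpgd.

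Several genes close to the members had values of like size. Saraf, which limits calcium entry through store-operated channels and is the measured gene after Leprotl1, had a mean over both groups of -0.43 ± 0.09 and lay between -0.67 and -0.10 in treated and between -0.76 and -0.10 in untreated mutants. Ppp1r3b, which directs a phosphatase to glycogen in liver, had a mean of -0.72 ± 0.17 and was below 0 on 8 arrays, with -1.90 on untreated mutant 4 and -0.04 on untreated mutant 2. Frg1 had a mean of 0.45 ± 0.09 and Mtus1 one of 0.41 ± 0.09, each above 0 on 8 arrays. Mtus1 and Fgl1 are next to each other in the order. Under the other reading these means would be 0.17 for Saraf, 0.35 for Ppp1r3b, -0.05 for Frg1 and 0.06 for Mtus1.

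Of the other distal genes with small p, Enpp6 had one sign on 8 arrays and the rest did not. Cnot7, a deadenylase subunit that shortens mRNA tails, stood at 0.49 ± 0.12, Tusc3, of the oligosaccharide transfer complex, at 0.34 ± 0.08, Enpp6 at 0.27 ± 0.08, and Dctn6, a dynactin subunit, at 0.30 ± 0.09. Cnot7 and Tusc3 were above 0 on 7 arrays and Dctn6 on 6. Gm16348 stood at -0.66 ± 0.17 and Tenm3 at -0.27 ± 0.10. On the proximal side Defb14 stood at -0.31 ± 0.09. Slc25a15, which carries ornithine into mitochondria, had a mean of -0.70 ± 0.09. It stood at 0.11 and 0.27 on treated mutants 1 and 2 and at -0.59 and -0.28 on untreated mutants 1 and 2, while the swapped arrays reached -1.21 in treated and -1.69 in untreated mutants. Its mean thus came mostly from swapped arrays. Under the other reading Dctn6 would stand at -0.38, Slc25a15 at 0.57, Cnot7 at -0.12, Enpp6 at -0.09 and Tusc3 at 0.18. Gm16348 would stand at 0.10, Tenm3 at 0.10 and Defb14 at -0.11. Of the 12 neighbours given with a mean, 9 thus have the opposite sign under that reading. None of these genes passed after adjustment in limma.

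Genes known to work with each member were set beside it, from lists written with earlier results of these data known. Of 17 measured genes of prostaglandin synthesis and breakdown other than Hpgd, 2 had an unadjusted p under 0.05 over both groups, and both were higher, where 5.9% of all genes had such a p. Ptgds, a prostaglandin D synthase, stood at 0.57 ± 0.12 and was above 0 on 8 arrays, and Slco2a1, a prostaglandin importer, stood at 0.35 ± 0.09. Ptgis, the prostacyclin synthase, stood at 0.55 ± 0.22 in treated and 0.31 ± 0.22 in untreated mutants. The median of the list was 0.00, against -0.01 for all genes.

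Of 14 genes of VEGF-C and lymphatic signalling, 1 had such a p, Vegfb, at 0.48 ± 0.09 and above 0 on 8 arrays. Pgf stood at -0.48 ± 0.21 in treated and 0.24 ± 0.21 in untreated mutants. The median of these 14 partners of Vegfc was -0.05. Of 9 genes of leptin receptor trafficking and growth hormone signalling, Socs2, a target and inhibitor of growth hormone signalling, had such a p at -0.52 ± 0.18. It stood at -2.21 on treated mutant 1 and between -0.76 and 0.23 on the other arrays.

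Of 21 genes of the signal peptidase and translocon, none had such a p over both groups, and the median was -0.01. In treated mutants 3 did, Srp14 at 0.45 ± 0.14, Spcs1 at 0.30 ± 0.13 and Ssr4 at 0.30 ± 0.10, and in untreated mutants none did. Of 19 genes of the fibrinogen family and acute phase, 1 had such a p over both groups, Il6ra, the interleukin 6 receptor, at -0.24 ± 0.09. Fga, a fibrinogen chain, stood at 0.03 ± 0.15 in treated and 0.33 ± 0.15 in untreated mutants, and Cebpb, a transcription factor of the acute phase, at 0.41 ± 0.13 in treated and -0.32 ± 0.13 in untreated mutants.

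As deposited, the other lists gave no gene with such a p over both groups. They held 17 genes of the Sin3 complex, 12 of HMGB proteins and proliferation, 10 of tRNA wobble uridine modification and 10 of ROCO proteins and Toll signalling. Sin3b stood at 0.22 ± 0.09 in treated and 0.01 ± 0.09 in untreated mutants, and Ccna2, a cyclin of dividing cells, at 0.24 ± 0.10 and 0.02 ± 0.10. Urm1 and Ctu1, which place sulfur on wobble uridines, stood at -0.05 ± 0.09 and 0.06 ± 0.11 in treated and at -0.28 ± 0.09 and -0.32 ± 0.11 in untreated mutants. Ppp2r1a, a phosphatase scaffold, stood at -0.31 ± 0.14 in treated and -0.13 ± 0.14 in untreated mutants.

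The counts of these lists depend on the reading. With the swapped values turned by the dyes, where 10.6% of all genes had such a p over both groups, the signal peptidase and translocon list had 4 higher and 1 lower. The fibrinogen and acute phase list then had 5 higher and 2 lower, the tRNA wobble uridine list 3 higher and 1 lower, and the Sin3 list 2 higher and 1 lower. The prostaglandin list had 2 higher, the VEGF-C list 1 higher and the leptin receptor and growth hormone list 1 lower under either reading. These equal counts rested on different genes under each reading. The lists of HMGB proteins and of ROCO proteins had none under either. With the values turned, Vegfb would stand at -0.06 in place of 0.48, Ptgds at 0.14 in place of 0.57 and Slco2a1 at -0.13 in place of 0.35. Igf1 would stand at -0.63 in place of 0.23, and Socs2 at -0.40 in place of -0.52.

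Markers of other liver cell types moved between arrays as well. Of 6 macrophage and Kupffer cell markers, 3 had an unadjusted p under 0.05 over both groups as deposited, all higher, and under the other reading 2 were higher and 1 lower. Their mean ranged from -1.31 to 2.19 over treated and from -1.60 to 0.98 over untreated mutants, with the lowest value on number 3 in both groups. Marco weighed most in it, at -4.75 in treated and -5.35 in untreated mutant 3 and at 4.79 in treated mutant 4. In both groups 5 of the 6 markers were lowest on number 3, while Cd163 was highest there, at 1.98 in treated and 1.00 in untreated mutants. The mean over both groups of Cd163 was 0.77 as deposited and -0.54 under the other reading. The mean of 8 endothelial markers ranged from -0.48 to 0.50 over treated and from -0.48 to 0.21 over untreated mutants, again lowest on number 3. Of these 8 markers, 4 were lowest on number 3 in both groups. The means of stellate and lymphocyte markers were also lowest there, at -0.48 and -0.40 in treated and at -0.24 and -0.20 in untreated mutants. Those of hepatocyte and cholangiocyte markers were not. Fgl1 feature 22547 was also lowest on number 3, and the part of these cell types in any member's value was not tested.

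For each member the gene with the most similar values over the 8 arrays was found by Pearson correlation of the values as deposited. It lay on another chromosome for 8 of the 9, where chromosome 8 holds only 4.91% of all genes tested. These were Sult1c2 for Mfhas1 (r = 0.98), Dsc2 for Fgl1 (0.99), Tcf19 for Spcs3 (0.97), Glmn for Vegfc (0.97), Mapk6 for Trmt9b (0.95), Pcna for Leprotl1 (0.96), Gpx1 for Hpgd (0.99) and Gnptab for Sap30 (0.95). For Hmgb2 it was Sult5a1 (0.99), which is on chromosome 8 and stood at -0.40, 1.15, -0.28 and 1.21 in treated and at -0.72, 0.79, -0.75 and 0.52 in untreated mutants. Each is the highest of 19087 genes over only 8 arrays that share wild type livers and dyes, and is a description. The correlations were not computed with the swapped values turned. Hpgd and Gpx1 both changed sign with the dye on 8 arrays. A correlation does not use the mean, as with Mapk6, with a mean of 0.05 where Trmt9b has -1.17. Of the 50 genes most like each member, between 1 and 4 were on chromosome 8, which holds 4.91% of the genes tested, and none was another member.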

How the data were processed

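The authors deposited 1 table of log ratios of the 2 channels of each array, read here as log2 values. Per the submitters' processing notes they used limma, in a role and version left unstated. How they corrected background and normalized, and the base and direction of the log ratios, are not known here. Platform annotation gave a single symbol for 33653 features and several for 56, and 33517 were found in the RefSeq table by Entrez number. Features of a gene were averaged. Models were fitted over all 19087 genes in R 4.3.3 with limma 3.58.1 (lmFit, then eBayes) and Benjamini-Hochberg adjustment. The comparisons of each group with wild type and with each other used 8 arrays, with terms for treated mutants, untreated mutants and the dye, whose sign was reversed where dyes were swapped (5 residual degrees of freedom). For both groups over wild type the 2 arrays of a wild type number were averaged first, leaving 4 values and 2 residual degrees of freedom. Same-numbered arrays are taken as paired because the labels give them the same wild type number. Their deviations from the group means correlated at 0.32 to 0.51 across genes. They also share the dye order, so that correlation alone does not show the pairing. The deposited values of same-numbered arrays correlated at 0.25 to 0.45, and those of other pairs with the same dye order at -0.10 to 0.22. Scripts were tested on simulated data. The members, lists, window, tests and the reading were chosen with earlier results of these data known. Beside the members and Wrn, the genes named are the 6 of smallest p in each direction within 100 measured genes of Wrn, up to 3 per partner list with an unadjusted p under 0.05, and the gene most like each member. Genes named for having one sign on the arrays and single cell type markers were chosen after their values were seen. The design states independent biological replicates.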

Additional observations from a re-analysis of the deposited data

Results flagged for a closer look

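In groups of 4 arrays, the gap of an extreme array to its nearest neighbour was set against the group's range, which flags about 1 in 20 groups by chance. Of 58 groups of members, Wrn and their features tested, 3 stood out. Fgl1 feature 6410 stood at -1.41 on treated mutant 4, with the other treated arrays between -0.28 and -0.07, and at -0.28 on untreated mutant 4, with the other untreated arrays between 0.35 and 0.38. Both are arrays of number 4, which share wild type RNA. Leprotl1 feature 32166 stood at -0.48 on treated mutant 2, with the other treated arrays between 0.08 and 0.10, and untreated mutant 2 also stood at -0.48.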

How the results depend on the processing

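With the swapped arrays turned by the dyes, 10 and 9 genes passed in treated and untreated mutants over wild type. Both-group means then lay between -0.16 and 0.16 for Mfhas1, Spcs3, Vegfc, Trmt9b, Leprotl1 and Sap30. In that reading 8 genes distal and 11 proximal to Wrn had an unadjusted p under 0.05, where 10.6% of all genes did. On the unswapped arrays alone, 53 genes passed over both groups, 1 in treated mutants, and 8 proximal genes had such a p, where 11.6% of all genes did. The mutant carried Cy5 on all of these arrays and no dye term was fitted. Dye and mutant effects thus cannot be told apart there, and the fit over both groups rests on the averages of numbers 1 and 2 only. Without the replicate block, 2 genes passed over both groups, and with the block as a random or fixed term none did in the other comparisons. Leaving out single arrays gave 0 genes over both groups and in untreated mutants and 0 to 3 in treated mutants, the 3 without treated mutant 2, with 1 to 4 proximal genes. Leaving out both arrays of a number gave 0 to 93 over both groups (93 without number 3, 52 without number 4), 0 to 8 in treated mutants (6, 1 and 8 without numbers 2, 3 and 4), 0 to 15 in untreated mutants (1 and 15 without numbers 2 and 4) and up to 5 proximal genes. With a number left out, the fit over both groups had 3 averages and 1 residual degree of freedom. Its residual spread came only from the 2 numbers that share a dye order. Treated against untreated mutants gave 0 throughout. Over all leave-outs, window counts were 18 to 27 in all and 16 to 22 distal, where 3.24% to 9.12% of all genes had such a p. The split by side was added after the data were seen. Windows of 20 and 50 genes a side held 6 and 16, or 15% and 16%, where 5.9% of all genes had such a p. A p under 0.01 left 14, or 7%, where 1.13% of all genes had one. All these window counts include members chosen for their shift. Feature medians, array scaling, robust eBayes and no dye term gave no call. Mfhas1, Fgl1, Spcs3, Vegfc, Trmt9b and Leprotl1 kept the sign of the both-group mean in all 18 alternatives other than the turned reading. Hpgd and Hmgb2 also kept it in all 18 and Sap30 in 17, so keeping the sign does not set the shifted members apart. In the turned reading Vegfc (-0.11), Leprotl1 (0.10) and Sap30 (0.15) changed it. Past the adjusted threshold of limma over both groups lay Trmt9b without number 3, without number 4 and on unswapped arrays, Fgl1 without number 3 and on unswapped arrays, and Vegfc without number 3. These values chose the members, so such calls support nothing. Signal over background could not be judged, as intensities were not analysed here.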
